A study of Mus musculus with 2 samples.

Results

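Chromatin accessibility was examined at 9 genes associated with the macrophage of the erythroblastic island: Spic, Maf, Csf1r, Vcam1, Adgre1, Cd163, Timd4, Fcgr1 and C1qa, out of 21938 protein-coding genes of the annotation. For each gene, all DNase I hypersensitive peaks and footprints in the gene body or within 50 kb of any annotated transcript start were taken, which gave 58 accessible regions of 99252 in the genome. The measurement was DNase-seq, an assay in which the nuclease cuts where nucleosomes and other proteins leave DNA exposed, on liver tissue of mouse embryos aged 13.5 days. There was 1 group of 2 biological replicates, with 1 library each, so no condition was compared. Both replicates are labelled as strain C57BL/6N,129 and as WT carrying several copies of A85 YAC, where YAC stands for yeast artificial chromosome. They have the same donor label but separate biosample labels, and their sex was not collected. The sources used here do not say what the YAC holds or whether embryos were pooled. The spread between these 2 samples may therefore be partly technical.

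The fetal liver is the main site of red cell formation before birth. Erythroblasts mature there in islands around a central macrophage, which holds them through adhesion molecules, supplies growth signals, engulfs and digests the nuclei they expel, and recycles heme iron. Such macrophages depend on the CSF1 receptor and on transcription factors that include PU.1 and MAF family members, and they carry F4/80, VCAM1 and CD163 on their surface. They are a minority of the cells of the organ. In bulk tissue, fewer cells of a type and less accessibility per cell cannot be told apart.

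The labelled tissue was checked against markers of its cell types. A shared promoter region, defined as a region with a peak in both libraries within 1 kb of any transcript start of the gene, was present at 7 of 8 erythroid markers, 3 of 8 hepatoblast markers, 2 of 8 endothelial markers, 2 of 8 granulocyte and mast cell markers and 1 of 8 macrophage markers. Over all protein-coding genes the share was 58.4%, and 24.8% among genes with CpG-poor starts, as defined below, to which 7, 6, 7, 6 and 7 of these markers belong in the same order. The 1 macrophage marker was Mertk, a receptor for the engulfment of dying cells, with a signal of 1.38 in replicate 1 and 1.02 in replicate 2. Of the erythroid markers, Tfrc, the transferrin receptor gene, had 16.2 and 11.7, and Slc4a1, the band 3 anion exchanger gene, had 10.1 and 5.05. No test was made between these lists. The signal of a peak is the authors' value, whose scaling is not stated. In each library all values were whole multiples of 1 step, 0.0127 in replicate 1 and 0.00604 in replicate 2. The number of steps is used below as the count behind a value, with a 95% Poisson interval that covers counting error only. The libraries held 76130 and 73852 peaks, with median counts of 69 and 126. Across all 45831 shared regions the median log2 ratio of replicate 2 over replicate 1 was -0.19.

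Of the 58 regions at the 9 genes, 33 were shared, 15 were found in replicate 1 alone and 10 in replicate 2 alone. Without Fcgr1, whose window holds a histone gene cluster, 38 regions remained: 19 shared, 14 of replicate 1 and 5 of replicate 2. At least 1 shared region lay in the window of 8 of the 9 genes, where 83.1% of all protein-coding genes had one. The exception was Timd4. The genes had a median of 3 shared regions, against 4 over all protein-coding genes. Only 12 of the 33 shared regions were nearer to a start of the gene itself than to that of any other protein-coding gene, and the other 21 were nearest to a neighbour. With a window of 20 kb on each side, 4 genes (Vcam1, Maf, C1qa and Fcgr1) and 10 shared regions remained. Just inside the limit of 50 kb lay regions of Csf1r at 49.2 kb (1.04 and 0.471) and of Fcgr1 at 49.8 kb (0.416 in replicate 2 alone). Just outside lay regions at 52.8 kb from Adgre1 (0.646 in replicate 1 alone), 53.5 kb from Fcgr1 (20.1 and 19.7), 54.0 kb from Csf1r (0.481 in replicate 1 alone) and 55.0 kb from Cd163 (2.18 and 1.00).

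**Figure D1:**
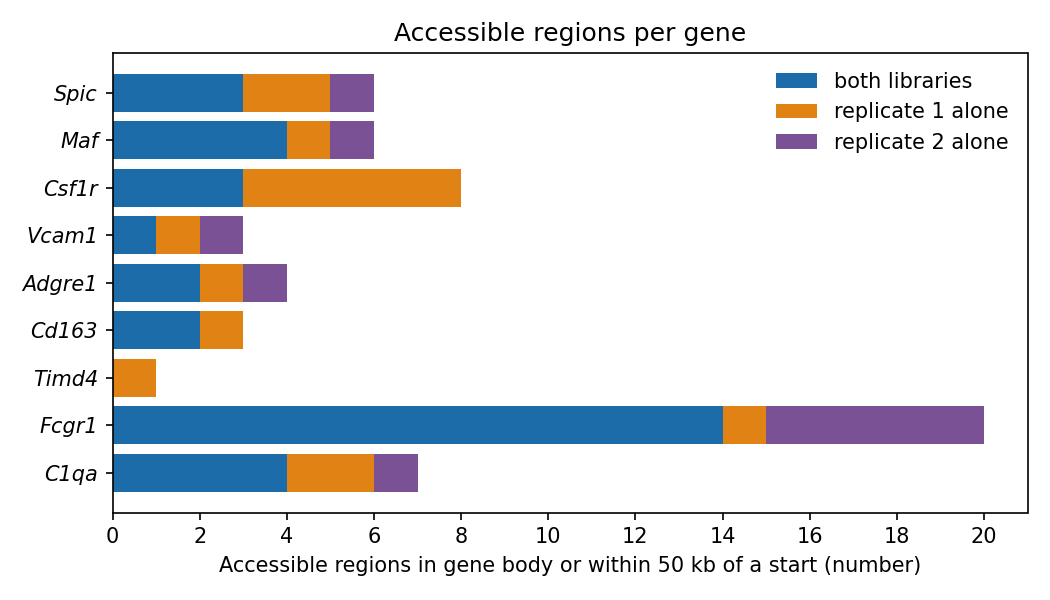
Number of accessible regions (x axis) in the gene body or within 50 kb of a transcript start of each of the 9 genes (y axis), split into regions found in both libraries, in replicate 1 alone and in replicate 2 alone. Fcgr1 has 20 of the 58 regions, and Timd4 is the gene with no region in both libraries.

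The starts of 7 of the 9 genes were not listed as accessible in either library. A shared region lay within 1 kb of a start at 2 of 9 genes, Vcam1 and Maf, where 58.4% of all protein-coding genes had one. When the peaks of the 2 libraries had to cover 50% of each other, this count was 0, and among the upper 50% of peaks by signal it was 1 (Maf). In replicate 1 taken alone, 2 of 9 genes had a promoter peak (60.7% of all genes), and in replicate 2 the same 2 of 9 (65.4%). The same 2 genes were the ones with a shared region in the gene body (64.0% of all genes). The deposited false discovery rate (FDR) lists, which hold only stretches of bases with an FDR under 0.05, had a stretch within 1 kb of a start at Vcam1 and Maf alone, again 2 of 9 in each library, against 62.1% of all genes in replicate 1 and 66.2% in replicate 2. At Adgre1, Csf1r, Spic, Cd163, Timd4, C1qa and Fcgr1 no base within 1 kb of any start was listed. Whether macrophages have open chromatin there below this depth cannot be told from bulk libraries.

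Most of these genes have starts that are poor in CpG dinucleotides. The ratio of observed to expected CpG was computed in the 1 kb centred on the 5′ end. It was under 0.5 at 8 of the 9 genes, from 0.115 at Adgre1 to 0.279 at Vcam1, and was 0.770 at Maf. Over all protein-coding genes 46.4% were under 0.5. Among those CpG-poor genes 24.8% had a shared promoter region, and 1 of the 8 CpG-poor members (Vcam1) had one. Among genes at 0.5 and above the share was 87.6%, and Maf, the 1 member of that class, had one. Set against genes of like CpG content, the members' count is thus close to the background, and no difference from other CpG-poor genes is shown.

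**Figure D2:**
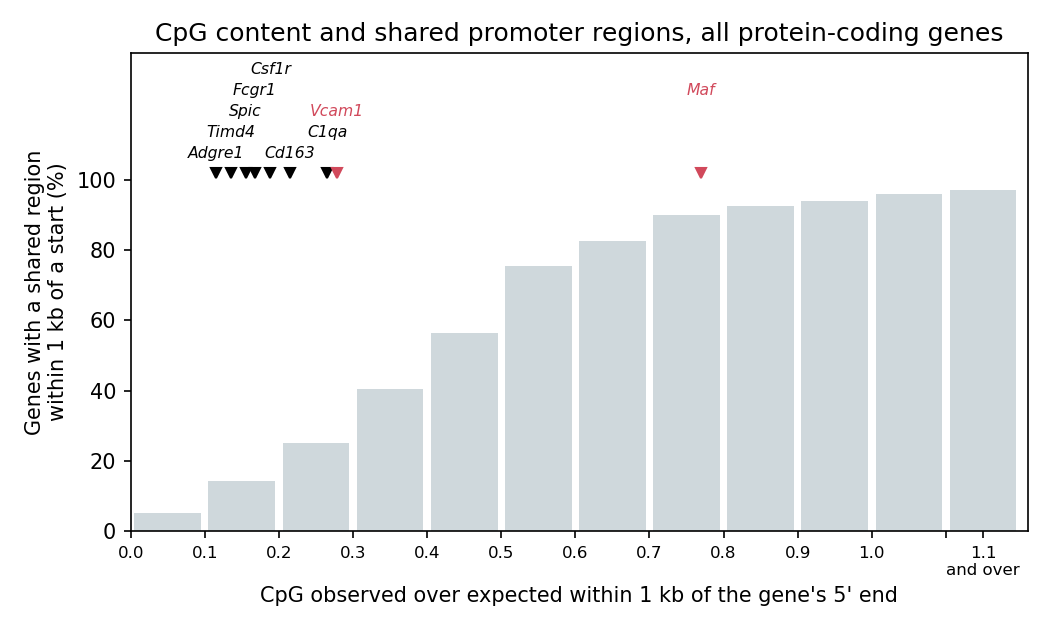
Share of all protein-coding genes with a region of both libraries within 1 kb of a start (y axis, percent) by the ratio of observed to expected CpG around the 5′ end (x axis, bins of 0.1, the last one open). Triangles mark the 9 genes, red for those with such a region, and 8 of them lie under 0.5, where 24.8% of genes have one.

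Spic encodes Spi-C, an ETS family factor needed for iron-recycling macrophages of the red pulp and bone marrow. The region nearest to its starts (ENSMUSG00000004359, minus strand of chromosome 10) lay 20.7 kb away. The 3 shared regions of its window all lay more than 45 kb upstream, at the start of the neighbour Arl1, a small GTPase gene of the Golgi. The highest, chr10:88731281-88731500, overlapped an Arl1 exon, with 5.80 in replicate 1 (458 counts, 95% interval 5.28 to 6.35) and 5.13 in replicate 2 (850 counts, 4.79 to 5.49). The other two had 2.73 and 1.70 at 45.9 kb from the 5′ end of Spic, and 0.937 and 0.453 at 47.5 kb. The regions in 1 library alone were weak. Replicate 1 had 0.481 at 40.5 kb upstream and 0.329 at 39.3 kb downstream, and replicate 2 had 0.260 at 20.7 kb upstream. None of the 6 regions lay in Spic. Those at 39.3 kb downstream and 20.7 kb upstream, each in 1 library alone, were nearest to a start of Spic, and the others to Arl1. No shared region was thus nearest to Spic, and the assignment of regions to genes was not tested.

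Maf encodes c-MAF, a bZIP factor of macrophages and T cells, and had the most regions at its own start. Of its 4 shared regions, all were nearest to Maf and 3 counted as promoter regions. The highest, chr8:115707801-115708260, began 7 bp outside the annotated 5′ end, with 1.43 in replicate 1 (113 counts, 1.18 to 1.72) and 0.990 in replicate 2 (164 counts, 0.844 to 1.15). The next, chr8:115707101-115707416 in the exon, had 0.392 in replicate 1 (31 counts, 0.267 to 0.557) and 1.15 in replicate 2 (191 counts, 0.995 to 1.33). These intervals do not overlap, and the log2 ratio of 1.56 stood at the 99.9th percentile of all shared regions. The remaining 2 had 0.392 and 0.616 in the exon, and 0.595 and 0.730 at 1.82 kb upstream. Between them, replicate 2 alone had a peak of 0.664 and replicate 1 alone had a peak of 0.392, also in the exon. At the peak of 0.392, all 145 bases were also listed in replicate 2, with a lowest FDR of 0.000155. At the peak of 0.664, no base was listed in replicate 1. The log2 ratio of the highest shared region, -0.53, stood at the 25.6th percentile, within the usual range of shared regions. The antisense gene Gm15655 overlaps this exon, and DNase-seq does not tell the strands apart.

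Csf1r, the gene of the receptor for CSF1 and IL-34 that macrophages need to survive, carried its own regions in replicate 1 alone. The highest, chr18:61108561-61108800, lay in a Csf1r intron, 8.08 kb from the 5′ end and 2682 bp from the nearest annotated start. It had 1.25 in replicate 1 (99 counts, 1.02 to 1.53), with a lowest FDR of 8.6e-10 in the authors' deposited list. That value stood at the 94.6th percentile of the 28168 regions found in replicate 1 alone. In replicate 2, which has more counts per unit of signal, no base of that intron region was listed under an FDR of 0.05. Replicate 1 alone also had 0.494 in an intron at 27.2 kb, and 3 regions of 0.481 to 0.506 in the neighbouring Pdgfrb. The 3 shared regions lay in the neighbours and not in Csf1r. They had 1.95 and 2.26 (154 and 375 counts) in an intron of Pdgfrb, the PDGF receptor beta gene, 1.22 and 0.761 in an exon of the same gene, and 1.04 and 0.471 in an exon of Hmgxb3. The last lay 49.2 kb from the nearest Csf1r start, just inside the window.

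The position of the regions differed between the genes. Maf had all of its regions close to the start, Vcam1 had 2 of 3 at the start and 1 at 24.6 kb downstream of the 5′ end, Adgre1 and Cd163 had theirs upstream only, and Csf1r had 5 of its 8 regions in replicate 1 alone.

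**Figure D3:**
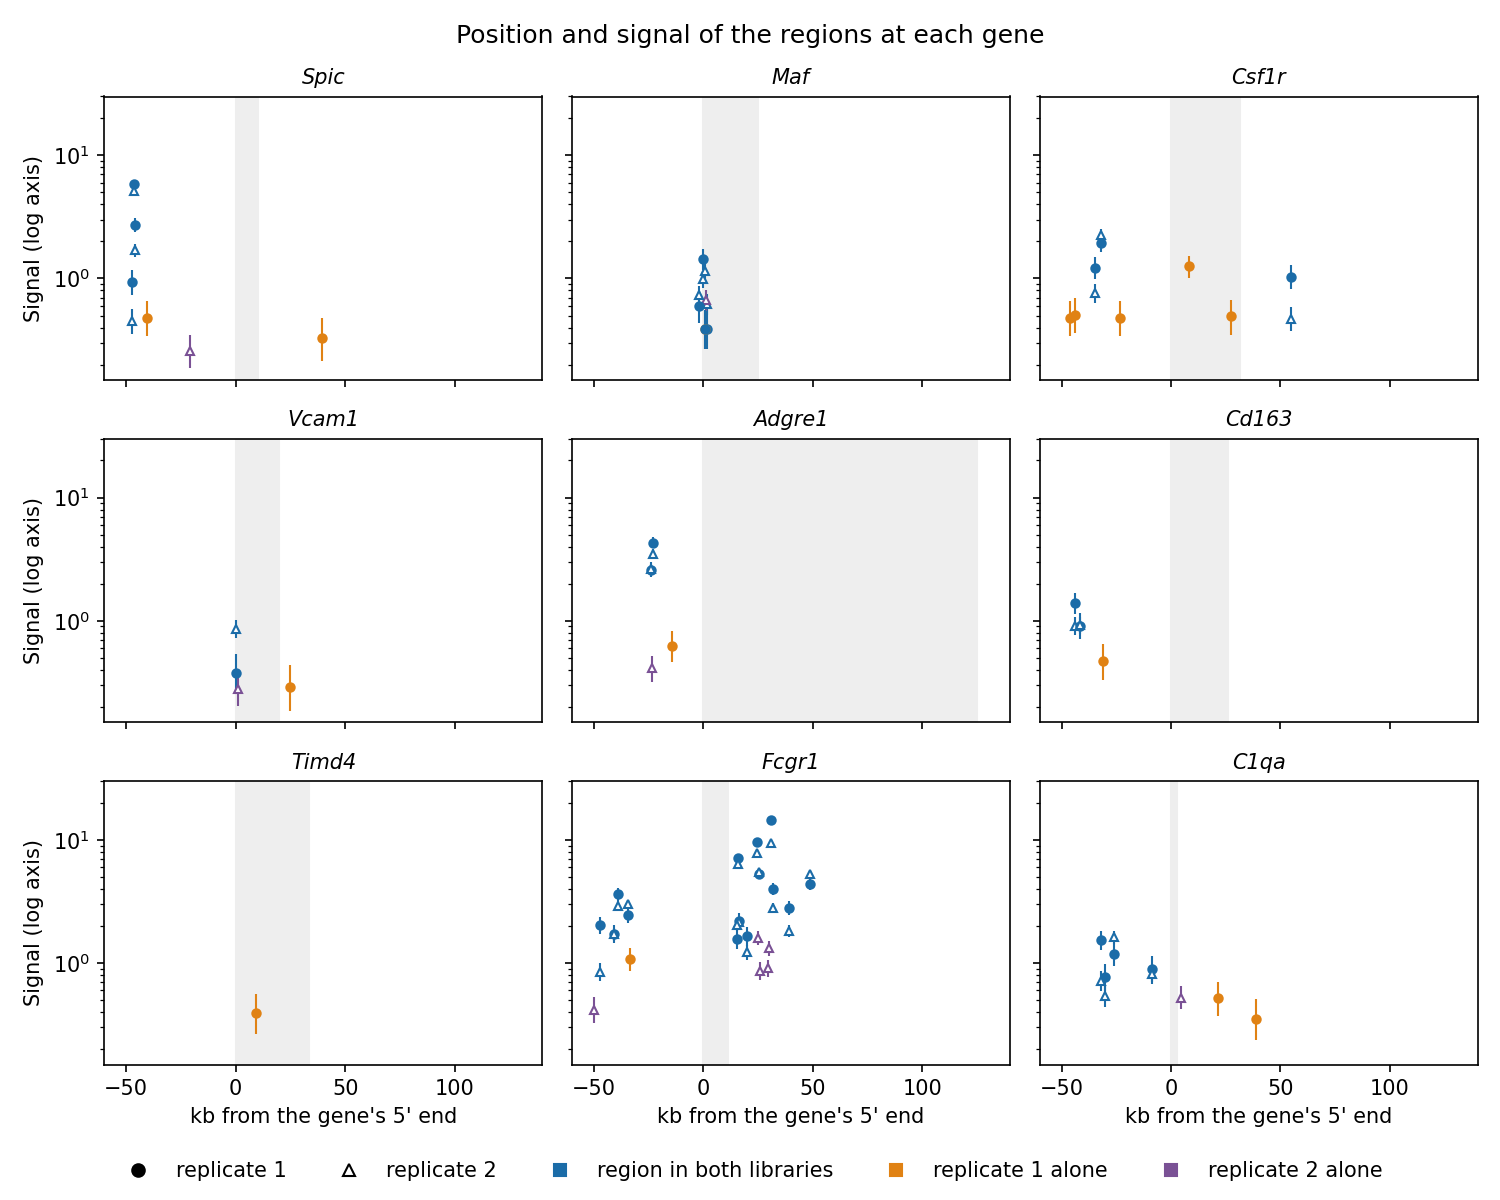
Signal of each region (y axis, log scale, authors' units, with 95% Poisson intervals of the count) by distance of its centre from the 5′ end of each gene (x axis, kb, positive in the direction of transcription). Grey marks the gene body, circles replicate 1 and triangles replicate 2. The gene bodies of Spic, Adgre1, Cd163, Fcgr1 and C1qa hold no region, and the highest values are beside Fcgr1.

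Vcam1 encodes the adhesion molecule that binds integrin alpha4 beta1 on erythroblasts, and it is also made by endothelial cells, so a peak at its start does not name the cell of origin. Its 1 shared region, chr3:116129341-116129600, covers 1 of the 4 annotated starts (position 116129457) and, in a longer transcript, the 5′ untranslated region. Replicate 1 had 0.380 (30 counts, 0.256 to 0.542) and replicate 2 had 0.857 (142 counts, 0.722 to 1.01). The intervals do not overlap, and the log2 ratio of 1.17 was at the 99.4th percentile of all shared regions. Endothelial markers, which could share this source, had promoter peaks at 3 of 8 genes in each library, against 60.7% and 65.4% of all genes. They were not the same genes: Kdr and Egfl7 had one in both libraries, Cdh5 in replicate 1 alone and Tek in replicate 2 alone. These markers were named after their values were seen, and the part of endothelial cells in the Vcam1 difference was not tested. No footprint of either library lay in the region. Replicate 2 alone had a second peak of 0.278 at 1.03 kb downstream of the 5′ end, and replicate 1 alone had 0.291 at 24.6 kb downstream. The antisense gene Gm43109 overlaps the locus. The region holds 1 match to an NF-kappaB word, GGGNNTTCC, a class of site known to mediate the induction of this gene by cytokines. It is shown as 30 bases at chr3:116129504-116129533, 5′ to 3′ on the minus strand of GRCm38.p6, with the word in capitals, which ends 53 bp upstream of the start named above.
Vcam1 site: gggtttccccttgaaGGGATTTCCctccgc
The word occurred in 4.05% of the central 200 bp of all shared regions, so its presence is a description of the sequence.

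**Figure D4:**
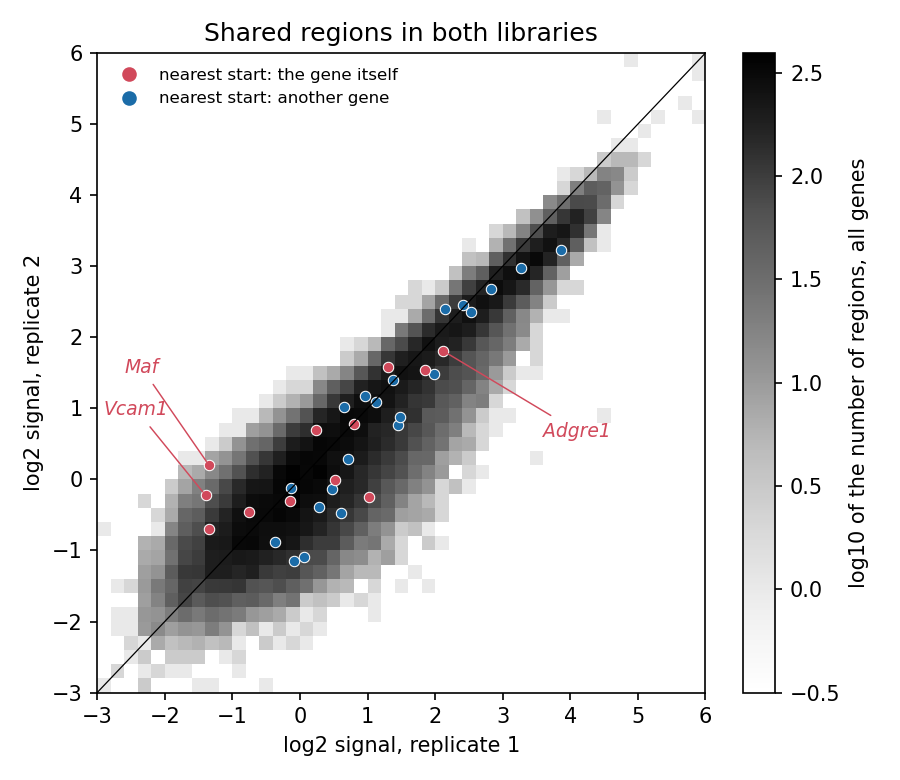
log2 signal of replicate 2 (y axis) against replicate 1 (x axis) for the 33 shared regions of the 9 genes (points, red where the gene itself has the nearest start) over the density of all 45831 shared regions (grey). The line marks equal signal, and the labelled Vcam1 and Maf regions lie above it, at the edge of the density, at log2 ratios of 1.17 and 1.56.

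Adgre1 encodes F4/80, the surface receptor by which island macrophages are usually recognised. Over its long gene body on chromosome 17 no region was found in either library, and its 2 shared regions lay 22.8 and 23.8 kb upstream. The nearer one, chr17:57335781-57335960, had 4.32 in replicate 1 (341 counts, 3.87 to 4.80) and 3.51 in replicate 2 (582 counts, 3.23 to 3.81). The farther one, chr17:57334841-57335020, had 2.61 (206 counts, 2.26 to 2.99) and 2.64 (437 counts, 2.40 to 2.90). Both stood above the median of all shared regions, 1.44 and 1.24. They are the highest of all shared intergenic regions outside the Fcgr1 window at these genes, and they were shared in the authors' shorter peak lists as well. The nearer region has its closest start at Adgre1. The farther region lies 22945 bp from the start of Vav1, a signalling gene of blood cells, and 23671 bp from the closest Adgre1 start. Between the 2 shared regions, replicate 2 alone had 0.410, and replicate 1 alone had 0.620 at 14.4 kb upstream. Footprints are short protected stretches inside a peak, and the deposited lists carry a threshold of 0.01. Those that overlapped between the libraries numbered 4 in the nearer region and 3 in the farther one. The sequences are shown 5′ to 3′ on the plus strand of GRCm38.p6, with the bases of shared footprints in capitals, because these 2 regions hold the most footprints per region outside the Fcgr1 and Spic windows.
Adgre1 nearer region: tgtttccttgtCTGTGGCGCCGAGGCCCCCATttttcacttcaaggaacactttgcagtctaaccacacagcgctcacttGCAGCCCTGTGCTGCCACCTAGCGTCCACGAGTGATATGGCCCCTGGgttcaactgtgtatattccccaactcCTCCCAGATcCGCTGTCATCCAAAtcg
Adgre1 farther region: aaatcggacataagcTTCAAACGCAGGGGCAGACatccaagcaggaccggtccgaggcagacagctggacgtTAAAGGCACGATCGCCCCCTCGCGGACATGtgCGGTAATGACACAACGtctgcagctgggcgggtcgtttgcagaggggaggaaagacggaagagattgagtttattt
The farther region holds 1 copy of GAGGAA, the core word of PU.1 and Spi-C, outside its footprints, and the nearer region holds 1 copy of the RUNX word TGTGGT on the minus strand, also outside. Inside the footprints, the closest match to the consensus of CTCF, an insulator and loop anchor protein, had 2 mismatches in 12 letters in each region. A shared footprint covered all 12 bases of both matches. Up to 2 mismatches occurred in 48.4% of all shared regions, and this consensus was chosen after the sequences had been read.

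Cd163 encodes the scavenger receptor that takes up haemoglobin bound to haptoglobin. Its gene body on chromosome 6 held no region. The 2 shared regions lay 43.9 and 41.8 kb upstream, nearer to the start of Vmn2r27, a vomeronasal receptor gene. The first had 1.39 in replicate 1 (110 counts, 1.14 to 1.68) and 0.911 in replicate 2 (151 counts, 0.772 to 1.07). The second had 0.911 (72 counts, 0.713 to 1.15) and 0.924 (153 counts, 0.783 to 1.08). Their log2 ratios, -0.61 and 0.02, stood at the 21.3rd and 65.5th percentiles of all shared regions, so neither stands apart from the usual spread between the libraries. Replicate 1 alone had 0.468 at 31.2 kb upstream. Each shared region holds exactly 1 shared footprint, and both footprints cover a near match to the consensus of CTCF, the insulator and loop anchor protein. The regions are printed on the plus strand, with the footprint in capitals, to show this arrangement.
Cd163 at chr6:124260641-124260840: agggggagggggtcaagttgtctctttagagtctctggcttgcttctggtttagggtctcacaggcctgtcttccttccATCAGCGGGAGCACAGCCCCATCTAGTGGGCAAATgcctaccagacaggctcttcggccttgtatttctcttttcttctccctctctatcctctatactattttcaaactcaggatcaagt
Cd163 at chr6:124262801-124263000: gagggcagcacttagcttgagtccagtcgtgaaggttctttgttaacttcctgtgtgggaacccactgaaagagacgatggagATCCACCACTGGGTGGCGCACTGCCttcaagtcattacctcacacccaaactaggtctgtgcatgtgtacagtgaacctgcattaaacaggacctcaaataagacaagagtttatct
The match in the first region is on the minus strand and in the second on the plus strand, so they point in opposite directions. In the orientation of the consensus they are:
first region: CCACTAGATGGG
second region: CCACTGGGTGGC

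Timd4 encodes TIM-4, a receptor for phosphatidylserine on dying cells and on expelled nuclei. It was the gene with the least signal. Its window held 1 region, chr11:46820076-46820235, in the intron 9.36 kb from the 5′ end and in replicate 1 alone, with 0.392 (31 counts, 0.267 to 0.557). The lowest FDR there was 0.000467 in replicate 1, and no base was listed in replicate 2. The value stood at the 32.1st percentile of the regions of replicate 1 alone, and the region held no footprint. The nearest shared region was 144 kb away, nearest to Timd2, with 0.671 and 0.308. The sequence is printed on the plus strand because it is the only region of the gene, with the matches to the searched words in capitals.
Timd4 intron: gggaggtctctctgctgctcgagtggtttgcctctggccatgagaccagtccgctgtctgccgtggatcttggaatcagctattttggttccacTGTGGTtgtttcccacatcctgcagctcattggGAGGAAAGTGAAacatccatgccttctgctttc
The capitals mark the RUNX word TGTGGT and the overlapping words GAGGAA and GAAANNGAA, the latter a word of interferon regulatory factors, which bind next to PU.1 in macrophages. Both of these words occurred in the central 200 bp of 1.98% of the regions of replicate 1 alone and 0.864% of all shared regions. Since the pair was looked for after this sequence had been read, it describes 1 weak region.

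C1qa encodes the A chain of complement C1q, which macrophages secrete and which marks dying cells for uptake. Its gene on chromosome 4, between C1qb, C1qc and Epha8, held no region. The 4 shared regions all lay upstream. The nearest, 8.47 kb away, had 0.899 in replicate 1 (71 counts, 0.702 to 1.13) and 0.809 in replicate 2 (134 counts, 0.678 to 0.958). The highest by mean rank, chr4:136924621-136924820 at 25.9 kb, had 1.18 (93 counts, 0.950 to 1.44) and 1.62 (268 counts, 1.43 to 1.82). A region at 30.3 kb had 0.772 and 0.543, and one in an exon of Epha8, an ephrin receptor gene, had 1.53 and 0.718. The log2 ratios of the 4 regions, from -1.09 in the Epha8 exon to 0.46 at 25.9 kb, stood between the 7.15th and the 89.0th percentiles of all shared regions. In 1 library alone, replicate 2 had 0.525 at 1004 bp from the start of C1qc, and replicate 1 had 0.519 and 0.354 on the far side, nearest to C1qb and to Ephb2. The 2 upstream regions nearest to C1qa itself are printed on the minus strand, the strand of the gene, with shared footprints in capitals.
C1qa at 8.47 kb: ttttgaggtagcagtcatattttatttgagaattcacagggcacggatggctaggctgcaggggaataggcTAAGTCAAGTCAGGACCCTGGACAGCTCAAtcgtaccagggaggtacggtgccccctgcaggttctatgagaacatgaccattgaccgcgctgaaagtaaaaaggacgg
C1qa at 25.9 kb: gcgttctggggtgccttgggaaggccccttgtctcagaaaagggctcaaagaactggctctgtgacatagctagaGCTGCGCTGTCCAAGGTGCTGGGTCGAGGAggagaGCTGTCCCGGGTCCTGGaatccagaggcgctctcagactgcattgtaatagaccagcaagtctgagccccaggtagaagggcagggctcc

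Fcgr1 encodes CD64, the high-affinity receptor for IgG. It had 14 shared regions, the most of the 9 genes, and none in the gene. Of these, 10 were nearest to starts of the Hist2 cluster of replication-dependent histone genes on the 3′ side. The highest were 14.5 and 9.35 at Hist2h4 (1145 and 1549 counts) and 9.63 and 7.90 at Hist2h2bb. The next, chr3:96278021-96278240, had 7.06 and 6.37 (558 and 1056 counts) with 4 shared footprints, and lay in an exon of the lincRNA gene Gm42743, 8269 bp from the start of Hist2h2bb. The start of Hist2h3b had 5.30 and 5.51. Histone genes are near-identical copies, and the sources used here do not say how reads that match several places were treated, so these values are uncertain. Of the 5 regions of this window with a peak in replicate 2 alone (0.416 to 1.60), 4 lay in the cluster, and the highest overlapped an exon of Hist2h3b. The 2 highest, with 1.60 and 1.32, also held stretches of 186 and 199 bases listed in replicate 1. Their lowest FDR there was 0.00102 and 0.00130. In the others no base was listed in replicate 1.

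The other 4 shared regions were nearest to Fcgr1, 34.4 to 47.1 kb upstream, and each overlapped a gene of a small RNA in RefSeq. The one at 34.4 kb, with 2.47 and 2.99, held the snRNA gene Gm24830. The other 3 held the tRNA genes n-TVcac10 (3.61 and 2.91), n-TNgtt5 (1.73 and 1.71) and n-TQctg5 (2.03 and 0.845). Among all shared regions 0.556% overlapped a tRNA gene and 0.0589% an snRNA gene. In replicate 1 alone a region of 1.08 lay at 33.3 kb. Transfer RNA genes are read by RNA polymerase III from promoter boxes inside the gene, and many have near-identical copies, so their values carry the same uncertainty. The regions of n-TVcac10 and n-TNgtt5 are printed on the minus strand of GRCm38.p6, the strand of Fcgr1, with shared footprints in capitals. In both, a footprint lies over GTTCGANNC, the core of the inner box (9 of 9 bases in the first and 8 of 9 in the second).
n-TVcac10, chr3:96332661-96332900: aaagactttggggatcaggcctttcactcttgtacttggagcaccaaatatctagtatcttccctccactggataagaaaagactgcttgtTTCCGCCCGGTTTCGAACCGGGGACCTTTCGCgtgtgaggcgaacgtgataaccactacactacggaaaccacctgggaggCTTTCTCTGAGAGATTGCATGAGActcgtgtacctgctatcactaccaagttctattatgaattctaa
n-TNgtt5, chr3:96334559-96334820: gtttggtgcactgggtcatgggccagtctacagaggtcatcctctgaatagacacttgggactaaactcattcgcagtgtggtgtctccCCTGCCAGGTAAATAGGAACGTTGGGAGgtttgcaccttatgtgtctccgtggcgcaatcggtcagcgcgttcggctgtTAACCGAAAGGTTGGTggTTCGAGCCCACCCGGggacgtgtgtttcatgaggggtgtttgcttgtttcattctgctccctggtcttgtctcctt
The word occurred in 0.934% of the central 200 bp of all shared regions and in 61.2% of those with a tRNA gene. Between the histone starts and Fcgr1, 4 shared regions of the window lay in the lincRNA gene Gm42743, from 3801 to 8589 bp from the start of Hist2h2bb. None of the 14 lay in Fcgr1, and their assignment to a gene was not tested.

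Shared footprints were found at fewer of these genes than shared regions. Of the 33 shared regions 25 held a shared footprint and 8 did not, with 56 footprints in all and 23 without Fcgr1. A shared footprint lay in a shared region of the window at 7 of 9 genes (77.8% of all protein-coding genes), all but Vcam1 and Timd4. The median was 3 per gene, against 7 over all protein-coding genes. Timd4 has no shared region that could hold one. No shared footprint lay in a region of 1 replicate alone.

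Words of macrophage and erythroid factors were searched on both strands in the central 200 bp of the 33 shared regions. The PU.1 and Spi-C word GAGGAA was in 5 (15.2%, against 17.95% of all shared regions) and the short MAF site TGCTGA in 5 (15.2%, against 15.8%). The IRF word GAAANNGAA was in 2 (6.06%, against 4.15%), at Vcam1 and Csf1r. The RUNX word TGTGGT was in 4 (12.1%, against 13.3%) and the GATA word AGATAA in 4 (12.1%, against 11.1%). The C/EBP word TTGCNNAA was in 4 (12.1%, against 6.42%), 3 of them at Maf. The AP-1 word TGANTCA and the MAF element GCTGANTCA that contains it were in none (5.47% and 1.90% of all). The KLF word CCNCNCCC was in 5 (15.2%, against 40.7%). In the 56 shared footprints extended by 5 bp, AGATAA occurred in 1, at Hist2h3b (1.79%, against 1.24% of all shared footprints), CCNCNCCC in 3 (5.36%, against 19.2%), and each of the other words in 0 (0.340% to 1.98% of all shared footprints). The NF-kappaB word given for Vcam1, added after the sequences had been read, was in 2 (6.06%), at Vcam1 and C1qa, and in 0 footprints (0.662% of all). These counts are small.

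The CTCF consensus, with at most 1 mismatch in 12 letters, was in 6 of the 33 shared regions (18.2%, against 26.3% of all shared regions). All 6 lay more than 1 kb from every protein-coding start, where 21 of the 33 lay, and the share among those was 28.6% against 39.7% of all such shared regions. They were the 2 regions of Cd163, 2 at C1qa and 2 at Csf1r. A shared footprint covered the match in 3 of them, both at Cd163 and 1 at Csf1r. In the 200 bp centred on each region of replicate 1 alone, the consensus was in 5 of 15 (33.3%, against 15.1% of all such regions). For replicate 2 alone it was in 1 of 10 (10%, against 6.87%). These 200 bp exceed many regions found in 1 library alone, and the replicate 1 match at Fcgr1 lay just outside its region. This consensus was chosen after the sequences had been read.

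Other macrophage genes were counted in lists. Of 12 other transcription factors of macrophages, 10 had a shared promoter region. In this list 3 genes are CpG-poor, and the share was 87.6% over all genes that are not, so the count is near the background. The list had its highest values at Bach1, a heme sensor (10.01 and 9.43), and Nr1h3, the LXR alpha gene (8.14 and 8.39). Tfec and Fli1 had none. Of 18 surface and lysosome genes of macrophages 2 had one, Csf2ra (3.85 and 3.55) and Lgals3 (1.63 and 1.48). All 18 have a CpG ratio under 0.5, where the share over all genes is the 24.8% given above. In this list 7 genes had a promoter peak in replicate 1 and 2 in replicate 2, against 60.7% and 65.4% of all genes. The shares of CpG-poor genes were not computed for each library. The 5 with a peak in replicate 1 alone were Cd68, Lyz2, Cx3cr1, Tyrobp and Fcer1g, named here after their values were seen. No gene of the surface and lysosome list had a promoter peak in replicate 2 alone. In the list of transcription factors and the lists of the next paragraph, both directions occurred. Tfec and Slc11a1 had a promoter peak in replicate 1 alone. Fli1, Axl, Tyro3, Gas6 and Igf1 had one in replicate 2 alone. Among the markers of the other cell types, Alb, Cdh5 and S100a8 had one in replicate 1 alone, and Alas2, Ttr, Apoa1, Hnf4a and Tek in replicate 2 alone. These genes were likewise named after their values were seen. Whether the replicates differ in macrophage content was not tested.

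Genes for the tasks of the island macrophage, and for the attachment partners and signals of the island, were counted in the same way. Many of them are also used by other cells, erythroblasts among them. The counts stand against 58.4% of all genes, 24.8% of CpG-poor genes and 87.6% of the others. Of 10 genes of heme and iron recycling, 6 of them CpG-poor, 7 had a shared promoter region, led by Nfe2l2, the NRF2 gene (19.6 and 13.7), and Fth1, the ferritin heavy chain gene (17.2 and 11.4). Hpx, the hemopexin gene, and Cd163 had none. Of 10 genes of engulfment and nucleus digestion, 5 of them CpG-poor, 5 had one, led by Dnase2a, the lysosomal nuclease gene (14.2 and 8.57), and Rac1 (9.56 and 8.82). Of 12 attachment partners and signals, 6 of them CpG-poor, 11 had one, led by Epor, the erythropoietin receptor gene (16.5 and 9.28), and Itga4, the gene of the alpha4 integrin that binds VCAM1 (14.0 and 10.3). Igf1 was the exception. Klf1 of this last list is also among the erythroid markers above.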

How the data were processed

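Both libraries were processed by the authors on build mm10, each from its own filtered alignment, as notes beside the files state. Each peak has a signal value from the authors, on a scale that is not stated. For the aligner and the peak and footprint callers, names and versions were not given in the sources used here. The deposited FDR lists (a p-value type measure) hold stretches under 0.05, and the deposited footprint lists carry the p-value or FDR threshold 0.01. Of 2 peak lists per library the longer was used.

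Peaks were merged across libraries by an overlap of at least 1 bp on 21 chromosomes, and the value of a region is that of its highest peak. Values were divided by the step of their library (tolerance 0.05 of a step, 100% whole) to give counts. Windows used every transcript start of GENCODE M21. Sequences and tRNA and snRNA genes came from RefSeq on GRCm38.p6. Tools were numpy 2.4.6, scipy 1.17.1, pysam 0.24.0, samtools 1.23.1, bedtools 2.31.1 and matplotlib 3.10.9. Merging and searches were tested on simulated data. With 1 group there is no test of a condition. The depth behind a region ranged as the counts given with it.

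The 9 genes were named together with the gene lists, and all were chosen with earlier results of these data known. Named regions are the highest shared one of each gene by mean rank, every shared promoter region and the highest in 1 replicate alone. Of each other list at most 2 genes with the highest shared promoter region and 2 without one are named, apart from those said to be chosen later. The CTCF consensus, the NF-kappaB word, the tRNA box and the word pair at Timd4 were added after the sequences were seen. Alternatives were the shorter lists, other overlaps, windows and promoter widths, the upper 50% of peaks, protein-coding transcripts alone, summed peaks, footprints without extension and each library alone.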

Additional observations from a re-analysis of the deposited data

How the results depend on the processing

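The main values were 8 genes with a shared region, 2 with a shared promoter region, 33 shared regions and 56 shared footprints. With a window of 20 kb these were 4 genes, 10 regions and 9 footprints, with 100 kb 62 regions and 101 footprints, and with the gene body alone 2 genes, 3 regions and 1 footprint. Shared promoter regions were at 0 genes when peaks had to cover 50% of each other and at 1 gene among the upper 50% of peaks. When each library was taken alone, footprints in its own peaks numbered 100 to 119, since no overlap is then asked for. Leaving out either library gave 8 to 9 genes with a region, 2 to 2 with a promoter region and 44 to 48 regions. The other alternatives stayed within 1.5 times of these counts, which are totals over the genes. Single genes moved more. With the shorter peak lists Csf1r had 1 shared region against 3, Maf 2 against 4 and C1qa 2 against 4, while the other genes kept their numbers. Summing peaks moved 2 of 66 region values outside the counting interval of the highest peak, both at Fcgr1. The CTCF consensus was in 2 shared regions without a mismatch and in 14 with up to 2. None of the searched words changed by more than 1.5 times without the extension of footprints. No paired analysis was possible because both libraries belong to 1 group. Regions with about 30 counts, as at Vcam1, Maf and Timd4, carry wide counting intervals, and whether a region missed in 1 library lies under its threshold is limited by depth.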
